A study of Homo sapiens with 16 samples.

Results

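Complex I (NADH:ubiquinone oxidoreductase) is built from subunits made in 2 genomes, and the transcripts described here are those of its nuclear genes. Members were taken by symbol: NDUFA, NDUFB, NDUFC, NDUFS, NDUFV or NDUFAB followed by a number, with the assembly factors (NDUFAF) left out. That rule found 38 genes among the 60662 in the count tables, 11 named NDUFS or NDUFV and 27 named NDUFA, NDUFB, NDUFC or NDUFAB. All 38 passed the filter on low counts and were tested.

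Complex I takes electrons from NADH through a flavin and a chain of iron-sulfur clusters to ubiquinone, and couples this to proton pumping across the inner mitochondrial membrane. The clusters and the flavin sit in a matrix arm made of nuclear subunits, while the pumping core of the membrane arm is encoded by mitochondrial DNA. Supernumerary subunits, all nuclear and not part of the catalytic path, surround this core and serve in its assembly and stability. Complex I is also a main site at which mitochondria make superoxide, from which hydrogen peroxide forms.

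The libraries came from Jurkat E6-1, an established human T cell line of WT genotype, for which the labels give Lymphoma as the cell type. In 8 control libraries the cells had no treatment and were taken at 0 h, and in 8 peroxide libraries they had been moved into PBS, given 10 µM hydrogen peroxide and harvested at 4 h. No untreated cells held in PBS for 4 h were analysed here, so the effects of time, of PBS and of peroxide cannot be told apart. Deposited names place 4 libraries of each group in batch 1 (replicates 1 to 4) and 4 in batch 2 (replicates 5 to 8), and the labels call the replicates biological without saying whether they were separate cultures, so p-values measure the spread between these libraries.

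Between 5556553 and 15720881 reads per library fell in genes, and 0.236% to 0.316% of them were reads of the 38 members. Reads that could not be aligned to a single place made up 30.2% to 47.2% of counted reads in controls and 33.3% to 45.8% after peroxide. In batch 2 this share was 31.8% to 33.7% in controls and 35.7% to 45.8% after peroxide, with no overlap, and all rows that name no gene held 44.9% to 46.8% and 48.3% to 56.5%. Without control 1 and peroxide 5, which had the largest shares, 9 members were called higher and 2 lower after peroxide, against 10 and 2 with all libraries, and the part of the remaining difference was not tested. All 10 T cell markers had a mean over 1 CPM (read counts scaled to library size, with TMM factors), with a sum of 2781 to 3673 CPM in controls and 2802 to 3677 CPM after peroxide. Epithelial and erythroid markers stayed under 1 CPM in sum, with EPCAM, CDH1 and HBB at 0 in every library, and of 4 B cell markers 1 had a mean over 1 CPM. The sum of 4 myeloid markers (CD14, LYZ, CSF1R and ITGAM), 2 of them with a mean over 1 CPM, was 0.125 to 0.943 CPM in controls and 4.02 to 13.3 CPM after peroxide, and its part in the results was not tested.

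Promoter windows in RefSeq (GRCh38.p14), 250 bases before to 50 bases after a start, were found for 32 of the 38 members; those without an entry include NDUFA4, NDUFB5, NDUFB9, NDUFC2 and NDUFS5. Both strands were searched for 3 motifs of factors known to act on respiratory chain genes: GCGCATGC of NRF1, CCGGAAG of the ETS family to which GABPA belongs, and AAGATGGC of YY1. The ETS motif ends in the letters with which the YY1 motif begins, and the NRF1 motif can overlap its own reverse complement, as it does in NDUFB4. The NRF1 motif stood in the windows of 6 members (18.8%, against 3.68% of all 27305 genes with a window). The ETS motif stood in 5 (15.6% against 12.2%) and the YY1 motif in 7 (21.9% against 3.52%). At least 1 of the 3 was held by 16 of 32 (50%, against 17.6%). The genes with a window were not limited to those tested here. The stretches below show copies that lie before the start, because members that hold the same letters were not all called alike after peroxide. Each runs 5′ to 3′ on the strand of the gene, with the motif or its reverse complement in capitals and 10 bases on either side.

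NDUFA6 (chr22:42090921-42090948, minus strand, NRF1): ctgtagatgaGCATGCGCagcacccacc
NDUFB4 (chr3:120596167-120596194, plus strand, NRF1): agagcacttcGCGCATGCgcatatcacc
NDUFA5 (chr7:123557959-123557986, minus strand, NRF1): tatgcccatcGCGCATGCgtcaattttt
NDUFS6 (chr5:1801351-1801378, plus strand, NRF1): cagaagccgtGCGCATGCgttagcgcta
NDUFS7 (chr19:1383824-1383851, plus strand, NRF1): tccggtttccGCATGCGCtccgagccgc
NDUFS1 (chr2:206159585-206159611, minus strand, ETS): gctggggccaCTTCCGGcggaactgcg
NDUFS3 (chr11:47578981-47579007, plus strand, ETS): ccacgtccgcCCGGAAGaagatctgct
NDUFB7 (chr19:14572074-14572100, minus strand, ETS): cctaaatgacCCGGAAGctgtgtctga
NDUFA1 (chrX:119871775-119871801, plus strand, ETS): tccgtcgcttCTTCCGGagccgtacgt

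The NRF1 copy shown began 166 bases before the start in NDUFA6, 159 in NDUFB4, 158 in NDUFA5, 73 in NDUFS7 and 46 in NDUFS6. The ETS copy shown began 157 bases before the start in NDUFS1, 83 in NDUFS3, 47 in NDUFA1 and 24 in NDUFB7. Whether the place of a copy matters for the peroxide difference was not tested. All 7 YY1 copies (NDUFA3, NDUFA6, NDUFA7, NDUFA9, NDUFB8, NDUFS4 and NDUFS7) began 11 to 26 bases after the start and are not printed. NDUFA8 (NRF1) and NDUFA13 (ETS) held their copy across or beside the start. A match describes the letters in the window and not a bound site.

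The peroxide comparison asks which members differ between the 2 groups, in a fit with batch as a term. After peroxide 10 members rose and 2 fell at an adjusted p under 0.05 (edgeR's quasi-likelihood test, Benjamini-Hochberg over 14092 genes), and 26 were not called. The risers were NDUFA1, NDUFA2, NDUFA4, NDUFA5, NDUFA6, NDUFA13, NDUFB4, NDUFB9, NDUFS4 and NDUFV2, and the fallers were NDUFS1 and NDUFV3. All changes were small, with no member past 1.5-fold. The rising share, 26.3%, was near the 24.1% of all genes tested, whereas 5.26% fell against 24.3% of all genes. Of all genes tested 48.3% were called in either direction. The median log2 fold change was 0.07 for the members and -0.01 for all genes, and its median size was 0.16 against 0.23. Members have short transcripts, with a median of 775.5 nt against 2567 nt for all genes tested. Of 494 genes tested with a median annotated transcript up to 800 nt, 174 rose and 53 fell. Their median log2 fold change was 0.13. Of the 20 members in that class 5 rose and 0 fell, with a median of 0.11. The part of transcript length in the peroxide comparison was not tested. In bulk RNA, fewer cells and less RNA per cell cannot be told apart, and all levels are relative to the rest of the RNA in a library.

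The counts of members called also moved with the scaling and the fit. With total counts in place of TMM, 7 members were higher and 5 lower, while over all genes 2822 were higher and 4375 lower (3391 and 3419 with TMM) and the median of all genes shifted by -0.06. DESeq2 called 10 members higher and 2 lower. Only 3 members were called higher when the batch term was dropped, and 5 were higher and 4 lower with no filter on low counts.

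**Figure D1:**
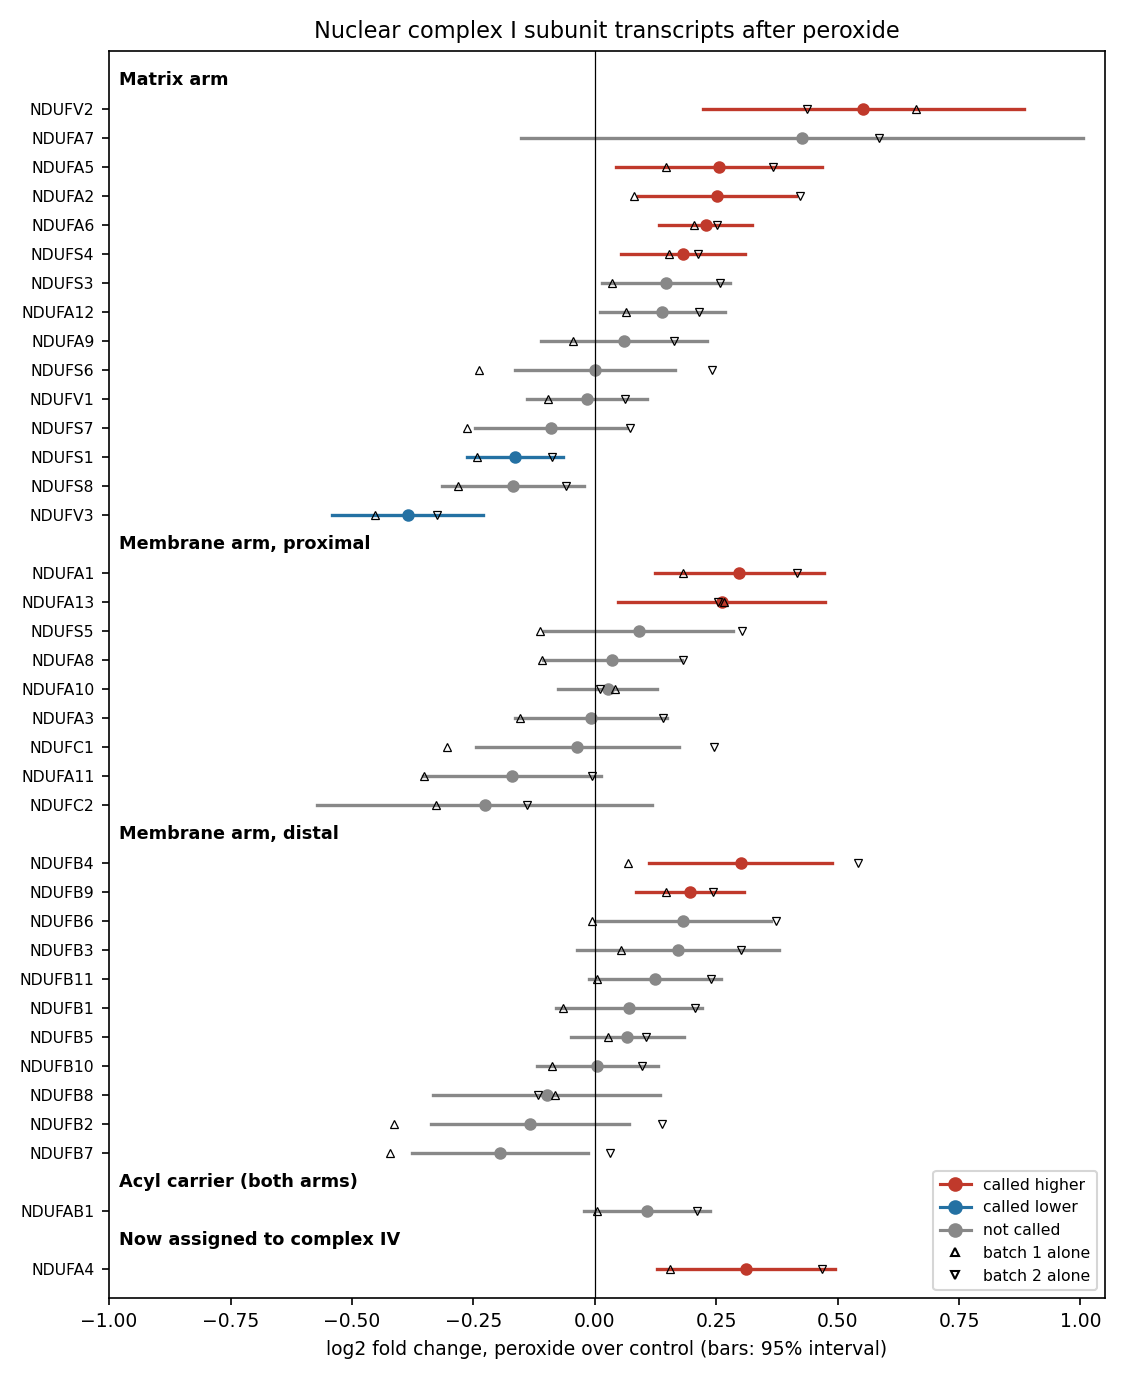
Log2 fold change of peroxide over control for 37 of the 38 members (circles, with 95% intervals), grouped by place in the complex; open triangles give each batch alone. The 10 members called higher and the 2 called lower (NDUFS1, NDUFV3) are coloured, and for most members the batch 2 value lies to the right of the batch 1 value.

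Among the 7 subunits that carry the flavin, the clusters or the quinone site, NDUFV2 rose, NDUFS1 fell, and 5 were not called. These are 14.3% each way, under the 24.1% and 24.3% of all genes tested. NDUFV1 holds the flavin and the site where NADH binds. Its level was 216 to 228 CPM in controls (median 225) and 174 to 249.6 CPM after peroxide (median 223), a log2 fold change of -0.02 ± 0.06 (SE). The groups overlapped, and the peroxide libraries spread about its control range on both sides.

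NDUFS1, the largest subunit, carries iron-sulfur clusters of the electron path and had an ETS copy in its window. Controls ranged from 156 to 174 CPM (median 165) and peroxide libraries from 138 to 155 CPM (median 146). It was the only member whose 8 peroxide libraries all lay below all 8 controls, against 4.49% of all genes tested, and no member had all 8 above (6.76% of all genes). The log2 fold change was -0.16 ± 0.05 (SE, adjusted p = 0.00679, edgeR's quasi-likelihood test). The call held when any single library was left out, with values of -0.18 to -0.15, and was lost in batch 2 alone (-0.09, adjusted p = 0.281).

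NDUFV2, the partner of NDUFV1 with a cluster of its own, had the largest log2 fold change of the members. Its level was low, 3.09 to 7.39 CPM in controls (median 4.84) and 5.32 to 9.55 CPM after peroxide (median 7.08), and the groups overlapped. The log2 fold change was 0.55 ± 0.16 (SE, adjusted p = 0.00645, edgeR's quasi-likelihood test). All libraries together held 909 of its reads and 406 of its pseudogene NDUFV2P1, a near copy, which went from 2.67 ± 0.68 to 2.89 ± 0.71 CPM (SD, n = 8) and was not called. Since reads that fit both are not counted for either, the level of NDUFV2 is uncertain, and 28.4% of its exon bases are shared with another annotated gene, AP005263.1. In batch 2 alone it was not called (0.44, adjusted p = 0.146).

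NDUFS7, NDUFS8 and NDUFS3 did not pass the test, and their groups overlapped. NDUFS7, at the quinone site, was at 43.0 to 50.3 CPM in controls (median 48.3) and 33.7 to 51.7 CPM after peroxide (median 45.1). NDUFS8, which holds clusters next to that site, was at 101 to 123 CPM in controls (median 113). After peroxide it was at 78.3 to 116 CPM (median 103), with -0.17 ± 0.07 (SE) and an adjusted p of 0.0524 (edgeR's quasi-likelihood test). NDUFS3, a scaffold of the matrix arm, went the other way in sign, with 79.1 to 118 CPM in controls (median 94.6), 92.0 to 122 CPM after peroxide (median 104) and 0.15 ± 0.06 (SE). NDUFS8 was called lower when control 5, control 6, peroxide 2, peroxide 5 or peroxide 8 was left out, and NDUFS3 was called higher without control 2, peroxide 1 or peroxide 4. These libraries account for the moves of the NDUFS and NDUFV counts, 1 to 3 higher and 2 to 3 lower when a library is left out, together with NDUFS4, which was lost without control 1.

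The remaining NDUFS and NDUFV members are supernumerary despite their names. NDUFV3, a small subunit attached to the NADH-binding module, had the smallest p and the most negative log2 fold change of all members. It was at 35.7 to 46.3 CPM in controls (median 39.6) and 26.7 to 39.4 CPM after peroxide (median 29.6). Only peroxide 8, at 39.4 CPM, reached into the control range, and the other 7 lay below every control. The log2 fold change was -0.39 ± 0.07 (SE, adjusted p = 0.000219, edgeR's quasi-likelihood test), and the call held under all 25 alternatives, each batch alone included.

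NDUFS4 joins the NADH-binding module to the rest of the arm and is mutated in Leigh syndrome. It was at 38.0 to 53.9 CPM in controls (median 44.8) and 42.2 to 59.3 CPM after peroxide (median 50.7). The groups overlapped, and the log2 fold change was 0.18 ± 0.06 (SE, adjusted p = 0.0179, edgeR's quasi-likelihood test). Neither batch alone called it. NDUFS5, an intermembrane-space protein, was not called (0.09 ± 0.09, SE), and the zinc-binding NDUFS6 is described with the batches.

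Matrix-arm members named NDUFA included 3 risers, and none of the 6 was called lower. Over the whole matrix arm 5 of 16 members rose (31.25%) and 2 fell (12.5%), beside 24.1% and 24.3% of all genes tested. NDUFA6, a protein of the LYR family that binds the acyl carrier NDUFAB1, had the smallest p among the risers. It was at 76.9 to 99.3 CPM in controls (median 85.5) and 90.6 to 120 CPM after peroxide (median 101). Pooled, the groups overlapped, but within each batch all 4 peroxide libraries lay above all 4 controls. In batch 1 the ranges were 92.8 to 99.3 and 106 to 120 CPM, and in batch 2 they were 76.9 to 78.3 and 90.6 to 97.0 CPM. The log2 fold change was 0.23 ± 0.05 (SE, adjusted p = 0.000337, edgeR's quasi-likelihood test), with 0.20 in batch 1 and 0.25 in batch 2.

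NDUFA2, with a thioredoxin-like fold, was at 29.3 to 54.8 CPM in controls (median 40.3) and 39.5 to 58.7 CPM after peroxide (median 47.2), with overlapping groups and 0.25 ± 0.08 (SE, adjusted p = 0.0110, edgeR's quasi-likelihood test). It was called in batch 2 alone (0.42) and not in batch 1 alone (0.08). NDUFA5 (0.26 ± 0.10, SE) was called by a narrow margin, adjusted p = 0.0427 in edgeR's quasi-likelihood test. Leaving out a single library ended that call for 12 of the 16 libraries, all but control 1, control 5, peroxide 2 and peroxide 3. NDUFA12 (0.14), NDUFA9 (0.06) and NDUFA7 (0.43 ± 0.28, SE) were not called. NDUFA7 had 180 reads in all libraries together, so a change of the size seen in its neighbours was not detectable at this depth. The acyl carrier NDUFAB1 (0.11 ± 0.06, SE), which also serves mitochondrial fatty acid synthesis, was not called either.

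In the proximal membrane arm 2 of 9 members rose and none fell. The rising share, 22.2%, was near the 24.1% of all genes tested, of which 24.3% fell. NDUFA1, a small single-span subunit needed for assembly, was at 41.6 to 112 CPM in controls (median 58.0) and 50.4 to 107 CPM after peroxide (median 75.1). In batch 1 controls were at 72.3 to 112 and peroxide libraries at 85.7 to 107 CPM, which overlap, and in batch 2 they were at 41.6 to 43.6 and 50.4 to 64.6 CPM, which do not. Its log2 fold change was 0.30 ± 0.08 (SE, adjusted p = 0.00553, edgeR's quasi-likelihood test), with 0.42 in batch 2 alone (adjusted p = 0.00125) and no call in batch 1 alone (0.18, adjusted p = 0.275). NDUFA13 (0.26 ± 0.10, SE), known also as a cell death regulator, had an adjusted p of 0.0399 in the same test, and 9 single libraries, 5 controls (3, 4, 5, 6 and 8) and 4 peroxide libraries (2, 3, 6 and 8), each ended the call when left out. NDUFA8 (0.04), NDUFA10 (0.03), NDUFA3 (-0.01), NDUFC1 (-0.04), NDUFA11 (-0.17) and NDUFC2 (-0.23) were not called.

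In the distal membrane arm 2 of 11 members rose and none fell. The rising share, 18.2%, was under the 24.1% of all genes tested, of which 24.3% fell. NDUFB9, another LYR protein, was at 91.3 to 106 CPM in controls (median 96.2) and 98.8 to 117 CPM after peroxide (median 114), with 0.20 ± 0.05 (SE, adjusted p = 0.00468, edgeR's quasi-likelihood test). NDUFB4 was at 57.6 to 172 CPM in controls (median 90.5) and 77.4 to 150 CPM after peroxide (median 113), with 0.30 ± 0.09 (SE, adjusted p = 0.00908). Both pairs of groups overlapped, NDUFB9 without a called batch difference and NDUFB4 with one of the largest. Both genes were called in batch 2 alone (NDUFB4 0.54, NDUFB9 0.24) and not in batch 1 alone (NDUFB4 0.07, NDUFB9 0.15). NDUFB6 (0.18), NDUFB3 (0.17), NDUFB11 (0.12), NDUFB1 (0.07), NDUFB5 (0.07), NDUFB10 (0.01), NDUFB8 (-0.10), NDUFB2 (-0.13) and NDUFB7 (-0.20) were not called. NDUFB7 was called lower without control 6 or peroxide 8, NDUFB3 higher and NDUFC2 lower without control 2. With NDUFS8 these make the number of members called lower 3 without control 2, control 5, peroxide 2 or peroxide 5, and 4 without control 6 or peroxide 8.

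NDUFA4 matches the rule by name but is now assigned to cytochrome c oxidase, complex IV. It was at 54.3 to 122 CPM in controls (median 74.1) and 73.6 to 132 CPM after peroxide (median 94.7), with overlapping groups and 0.31 ± 0.09 (SE, adjusted p = 0.00599, edgeR's quasi-likelihood test). NDUFA4 was called in batch 2 alone (0.47) and not in batch 1 alone (0.16). Without it 9 of 37 members rose and 2 fell.

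**Figure D2:**
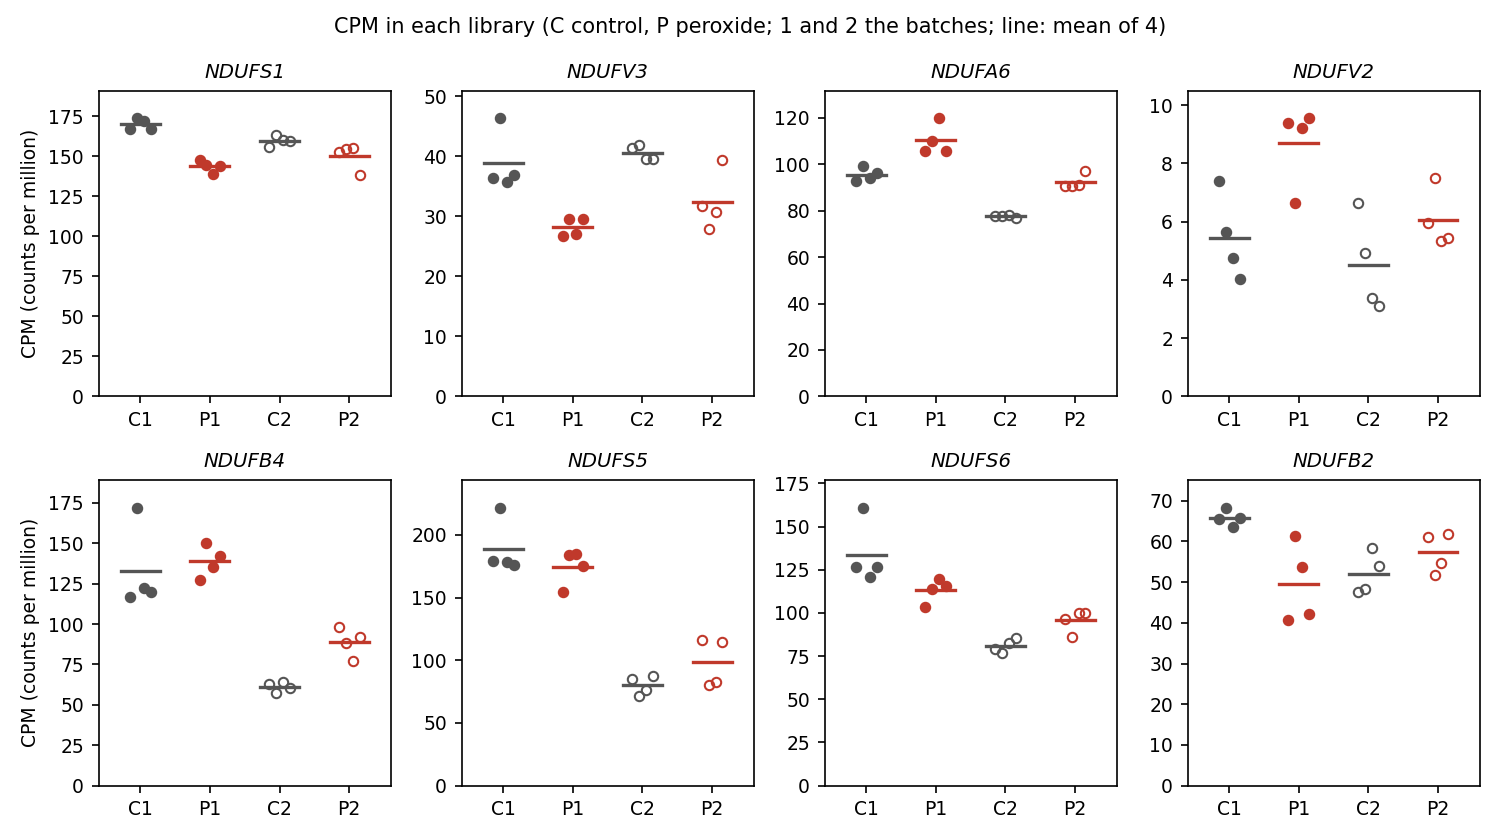
CPM of 8 members in each of the 16 libraries, by group and batch (C control, P peroxide; the line is the mean of 4 libraries). NDUFS1 lies below its controls in both batches and NDUFA6 above them in both, while the controls of NDUFB4, NDUFS5 and NDUFS6 are higher in batch 1 than in batch 2, and the groups of NDUFB2 are apart in batch 1 and overlap in batch 2.

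Core and accessory members, split by name, were then set side by side. Of the 11 NDUFS and NDUFV members 2 rose (NDUFS4, NDUFV2) and 2 fell (NDUFS1, NDUFV3), with a median log2 fold change of -0.02. Of the 27 others 8 rose and 0 fell, with a median of 0.11. These are 18.2% higher and 18.2% lower against 29.6% higher and 0% lower, beside 24.1% and 24.3% of all genes tested. The median transcript was 930 nt for the 11 and 761 nt for the 27, and the part of length was not tested. In edgeR's quasi-likelihood test 1 of the 27 (NDUFB7) was lower at an unadjusted p under 0.05, and DESeq2 called 8 higher and 0 lower. The count of accessory members moved with the scaling, the filter and the batch: 6 were higher and 2 lower (NDUFA11, NDUFB7) with total counts, 4 higher and 1 lower with no filter, 0 higher and 2 lower (NDUFB2, NDUFB7) in batch 1 alone, and 11 higher and 0 lower in batch 2 alone. Split by function in place of name, the 30 supernumerary members had a median of 0.08, with 8 higher and 1 lower. The accessory median stayed above the core median under each of the scalings tried (0.05 and -0.08 with total counts). It also did so in each batch, with 0.01 and -0.11 in batch 1 and 0.21 and 0.07 in batch 2.

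Summed over members, core CPM went from 1047 ± 123 in controls to 1016 ± 70.9 after peroxide and accessory CPM from 1606 ± 282 to 1717 ± 171 (SD, n = 8), and these pooled spreads hold the batch difference. In batch 1 the accessory sum was 1857 ± 134 CPM in controls and 1856 ± 101 CPM after peroxide (SD, n = 4), with overlapping groups. In batch 2 it was 1356 ± 30.5 and 1579 ± 82.7 CPM (SD, n = 4), and all 4 peroxide libraries lay above all 4 controls. The core sum was 1155 ± 60.2 and 1050 ± 83.1 CPM in batch 1 and 939 ± 19.3 and 983 ± 43.7 CPM in batch 2 (SD, n = 4), with overlapping groups in both. These sums were not tested. The ratio of these sums within a library was tighter. In batch 1 it was 0.606 to 0.642 in controls and 0.543 to 0.582 after peroxide, and in batch 2 it was 0.685 to 0.700 and 0.611 to 0.642. Within each batch all 4 peroxide libraries lay below all 4 controls, and across batches the ranges overlapped.

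**Figure D3:**
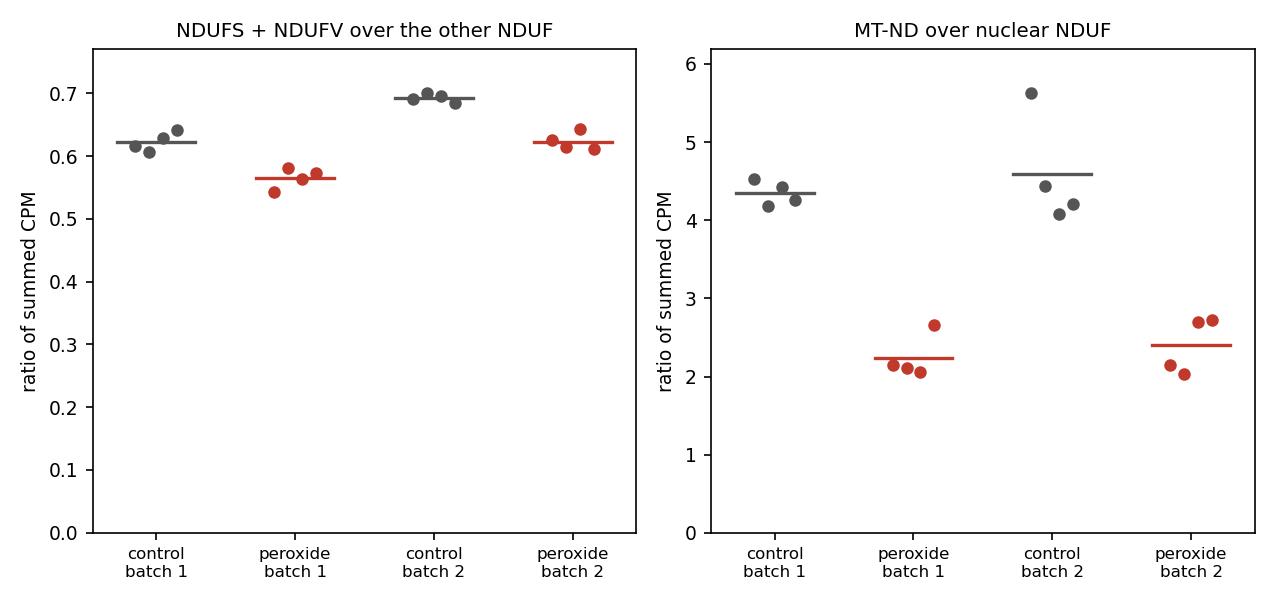
Ratios of summed CPM in each library, by group and batch (points are libraries, the line is the mean of 4): NDUFS and NDUFV members over the other members (left) and mitochondrially encoded over nuclear subunits (right). The left ratio is lower after peroxide within each batch and higher in batch 2 than in batch 1 within each group; the right ratio is 4.08 to 5.63 in controls and 2.03 to 2.73 after peroxide.

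Levels can be compared between members only per transcript length (CPM per kilobase of the median annotated transcript). The order at the top depended on the batch. In batch 1 controls NDUFS5 was highest on that scale, at 346 CPM per kb, followed by NDUFS8 at 207 and NDUFB4 at 198. In batch 2 controls NDUFS8 was highest, at 185 CPM per kb, and NDUFB10 at 149, NDUFV1 at 148, NDUFS5 at 147 and NDUFS3 at 145 lay close together. Over all controls NDUFV1 stood at 148 CPM per kb, and its partner NDUFV2 at 5.35. The level of NDUFV2 is uncertain, because reads that fit its pseudogene NDUFV2P1 as well are not counted. The lowest were NDUFA7 at 1.79 and NDUFA9 at 4.53 CPM per kb. NDUFA7 shares 33.5% of its exon bases with other annotated genes, so its level is uncertain too. The place of NDUFA9 rests on its length of 4502.5 nt, the median of only 2 annotated transcripts. Before scaling by length its control mean was 20.4 CPM, against 4.98 CPM for NDUFV2.

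Among controls alone, the members differed between the batches. In batch 2, 20 of the 38 members were lower than in batch 1 and 0 were higher (edgeR's quasi-likelihood test), against 20.5% lower and 22.1% higher of all genes tested. At an unadjusted p under 0.05, 22 were lower and 0 higher, and DESeq2 called 22 lower and 0 higher. The median log2 difference, batch 2 over batch 1, was -0.31 for the members and 0.01 for all genes. In batch 1 controls the members summed to 3012 ± 193 CPM and in batch 2 to 2295 ± 48.6 CPM (SD, n = 4), with peroxide libraries between them at 2906 ± 183 and 2562 ± 124 CPM.

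NDUFB3, a single-span subunit of the distal arm, differed most, 57.8 to 94.9 CPM in batch 1 controls against 26.1 to 30.7 CPM in batch 2, a log2 difference of -1.30. NDUFS5 followed with 176 to 222 against 71.2 to 87.6 CPM (-1.24) and NDUFB4 with 117 to 172 against 57.6 to 64.3 CPM (-1.11). NDUFA1 (72.3 to 112 against 41.6 to 43.6 CPM), NDUFC1 (-0.96), NDUFA4 (-0.76) and NDUFS6 (-0.72) came next, and all 4 batch 1 controls lay above all 4 of batch 2 for each of these 7 genes. That was so for 22 of the 38 members, against 20.4% of all genes tested, and no member had batch 2 above (21.2% of all genes). Control 2, the library with the fewest reads, was the highest control for NDUFB3, NDUFB4, NDUFS5, NDUFS6 and NDUFA1, and without it the batch count was still within the 19 to 22 seen when any library was left out.

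The members lower in batch 2 tended to have short transcripts. Of 20 members with a median transcript up to 800 nt, 14 were lower (70.0%, against 41.7% of 494 such genes over the genome). Between 800 and 1600 nt 4 of 11 were lower (24.6% of all genes in that range), and over 1600 nt 2 of 7 were (NDUFA4 and NDUFA9; 21.3%). Across members the Spearman correlation of length with the batch difference was 0.37 (n = 38, a description across genes that share the same libraries), and across all genes it was 0.05 (n = 11801). Within the class over 1600 nt the differences ran from -0.76 for NDUFA4 and -0.36 for NDUFA9 to 0.08 for NDUFV3 and 0.12 for NDUFA11. NDUFA9 was the longest by the median of its 2 annotated transcripts. No label says what the batches stand for, and the part of RNA quality or library preparation was not tested.

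Peroxide differences also varied with batch. In batch 1 alone 1 of 37 members tested was higher (NDUFV2) and 4 were lower (NDUFS1, NDUFV3, NDUFB2, NDUFB7), against 20.4% and 17.2% of all genes tested there. In batch 2 alone 13 of 38 were higher and 1 was lower (NDUFV3), against 19.4% and 19.1%. The median log2 fold change was -0.05 in batch 1 and 0.21 in batch 2. The interaction of batch and treatment, which tests this difference itself, had a positive estimate for 33 of 38 members. Over all genes tested 6781 of 14092 estimates were positive. The interaction holds the batch difference in controls with its sign reversed. It is therefore not independent of the difference among controls described above. The interaction was called for 2 of the 38 members (NDUFB2 and NDUFS6), a share near the 4.88% of all genes called in either direction. At an unadjusted p under 0.05 it was positive for 12 members and negative for 0, and DESeq2 called 5 positive. Leaving out 1 library gave 0 to 4 called members, with 4 without peroxide 6 (NDUFB7 and NDUFC1 added) and 3 without peroxide 2 (NDUFB4 added).

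NDUFS6, the zinc-binding subunit of the matrix arm, was at 121 to 161 CPM in batch 1 controls and 104 to 119 CPM after peroxide in that batch, against 76.9 to 85.5 and 86.3 to 100.1 CPM in batch 2. Pooled, it was at 76.9 to 161 CPM in controls (median 103) and 86.3 to 119 CPM after peroxide (median 102), with overlapping groups. The signs were opposite, -0.24 and 0.24, neither group overlapping the other within a batch, and the interaction was 0.48 ± 0.12 (SE, adjusted p = 0.0288, edgeR's quasi-likelihood test). That call was lost without control 5, control 6, peroxide 5 or peroxide 7, with adjusted p between 0.0504 and 0.0625.

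NDUFB2, a small distal-arm subunit, was at 63.5 to 68.3 CPM in batch 1 controls and 40.8 to 61.4 CPM after peroxide. In batch 2 it was at 47.5 to 58.5 and 51.9 to 61.8 CPM. Pooled, it was at 47.5 to 68.3 CPM in controls (median 61.0) and 40.8 to 61.8 CPM after peroxide (median 54.1). In batch 1 the groups did not overlap, and in batch 2 they did. The interaction was 0.55 ± 0.16 (SE, adjusted p = 0.0448, edgeR's quasi-likelihood test), and it remained called only without control 7, peroxide 2 or peroxide 6. Neither interaction was called without control 1 and peroxide 5, the 2 libraries with the most reads not aligned uniquely. NDUFB2 shares 35.9% of its exon bases with other genes, BRAF and NDUFB2-AS1 on the opposite strand among them.

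**Figure D4:**
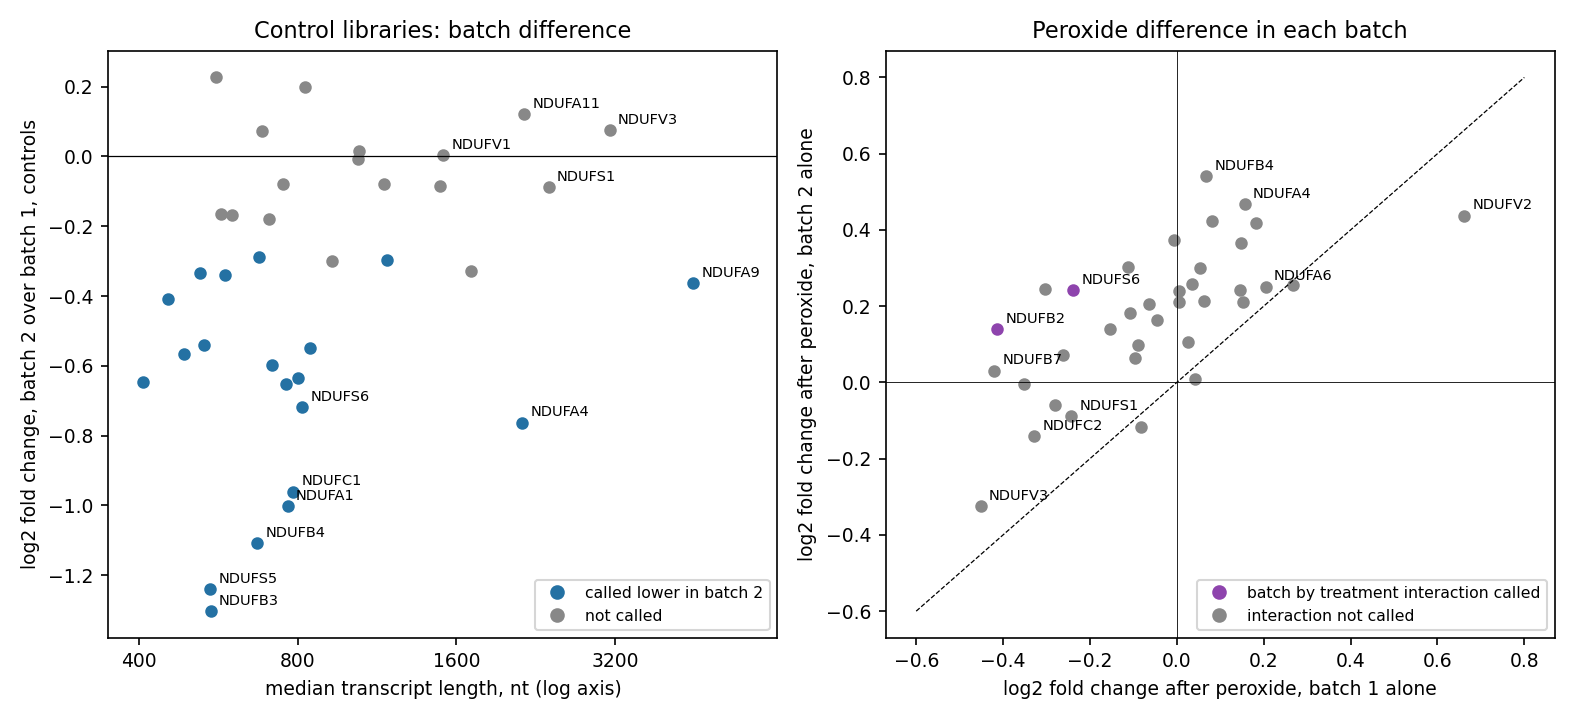
Left, log2 difference of batch 2 over batch 1 in controls against the median transcript length of each member (log axis); 20 members called lower are blue and NDUFB3 and NDUFS5 lie lowest. Right, log2 fold change after peroxide in batch 2 against batch 1 for 36 members tested in both; most points lie above the dashed line of equal values, and NDUFB2 and NDUFS6 are the 2 with a called interaction.

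The mitochondrially encoded subunits of the same complex were measured in the same libraries. Of 7 MT-ND genes 6 fell and 1 rose, with a median log2 fold change of -0.90, where the 38 nuclear members had 0.07. These are 85.7% lower and 14.3% higher, beside 24.3% and 24.1% of all genes tested. MT-ND6, which alone among them is encoded on the opposite strand, was at 388 to 761 CPM in controls (median 630) and 48.4 to 90.4 CPM after peroxide (median 72.9), a log2 fold change of -3.05. MT-ND5 was at 1899 to 3331 CPM in controls (median 2765) and 374 to 662 CPM after peroxide (median 526), a log2 fold change of -2.32. For MT-ND4 and MT-ND4L as well, all 8 peroxide libraries lay below all 8 controls. That was so for 4 of the 7 MT-ND genes, against 4.49% of all genes tested.

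MT-ND4 fell from 4672 ± 467 to 2507 ± 492 CPM (SD, n = 8), and its log2 fold change was -0.90. That of MT-ND1 was -0.91, of MT-ND4L -0.77 and of MT-ND3 -0.33. MT-ND2 was the exception, from 1311 ± 327 to 1642 ± 410 CPM (SD, n = 8) with 0.32 ± 0.08 (SE, adjusted p = 0.00312, edgeR's quasi-likelihood test). The adjusted p of the 6 that fell ranged up to 0.00245 in the same test.

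The MT-ND sum went from 11805 ± 1730 to 6330 ± 904 CPM and the ratio of this sum to that of the nuclear members from 4.47 ± 0.49 to 2.32 ± 0.31 (SD, n = 8). The ratio was 4.08 to 5.63 in controls and 2.03 to 2.73 after peroxide, with no overlap between the groups. Mitochondrial genes have nuclear copies, and reads that fit both are not counted, so their levels are uncertain. For MT-ND6, reads of RNA from the other strand cannot be told apart, since the strand setting of the counting is not given.

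**Figure D5:**
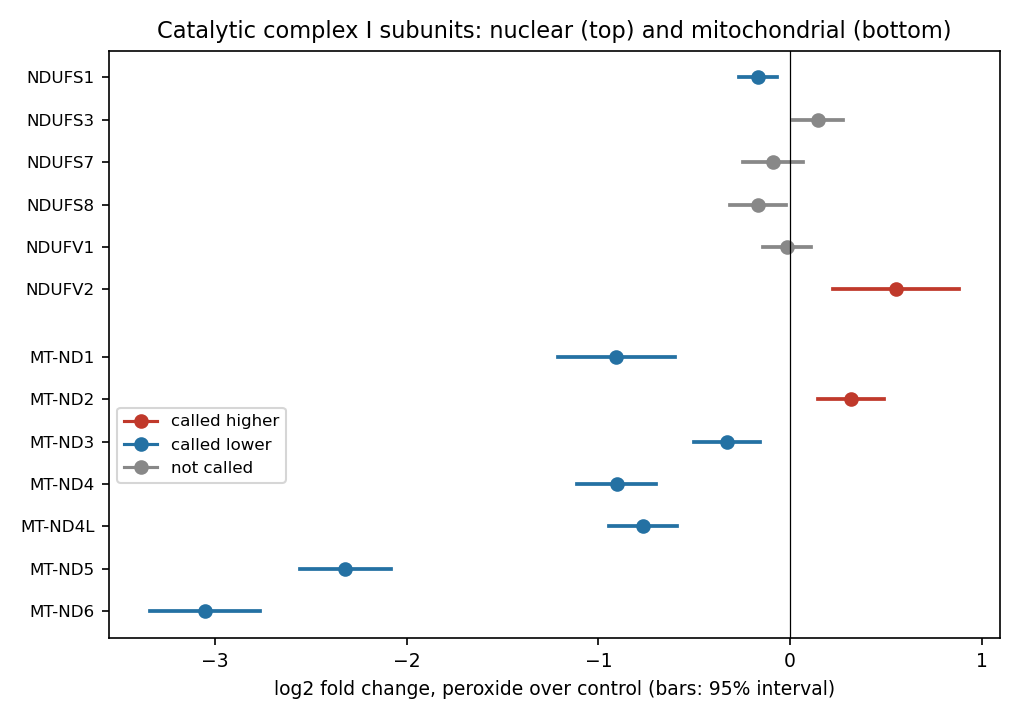
Log2 fold change of peroxide over control, with 95% intervals, for 6 nuclear catalytic subunits and the 7 MT-ND subunits. Nuclear values lie between -0.17 and 0.55, and MT-ND values between -3.05 and 0.32.

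Of 18 assembly factors tested, which build complex I without being part of it, 3 rose and 3 fell. These are 16.7% each, under the 24.1% and 24.3% of all genes tested. ECSIT (log2 fold change 0.35) and DMAC2 (0.30) rose. TMEM186 fell by 0.55 on the log2 scale and ACAD9, which is also related to acyl-CoA dehydrogenases, by 0.32. NDUFAF4 (0.32) and NUBPL (-0.37), a carrier of iron-sulfur clusters for complex I, were the other two called.

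Of 9 listed regulators of respiratory genes 8 were tested, 5 rose and 1 fell. These are 62.5% and 12.5% of a short list, beside 24.1% and 24.3% of all genes tested. GABPB1, the partner of GABPA, rose by 0.60 on the log2 scale, PPRC1, a coactivator, by 0.35, and the related PPARGC1B fell by 0.51 on the log2 scale. YY1 rose by 0.26, TFAM, which packages and transcribes mitochondrial DNA, by 0.29, and GABPA by 0.25. NRF1 (0.04) and ESRRA (0.06) were not called, and PPARGC1A was too scarce to test. Of the 6 members with the NRF1 motif 3 rose (NDUFA5, NDUFA6, NDUFB4) and 3 were not called. With the ETS motif 2 of 5 rose (NDUFA1, NDUFA13) and NDUFS1 fell, and with the YY1 motif 2 of 7 rose (NDUFA6, NDUFS4). Over all 38 members 10 rose and 2 fell, and of all genes tested 24.1% rose and 24.3% fell. A link of motif to peroxide difference was not tested.

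Nuclear subunits of complexes II to V, the other respiratory complexes and ATP synthase, showed the batch difference too. Of 40 tested 32 were lower in batch 2 controls and 0 higher, with a median of -0.40. Over all genes tested 20.5% were lower and 22.1% higher. After peroxide 17 rose (42.5%) and 0 fell, beside 24.1% and 24.3% of all genes tested. The median log2 fold change was 0.15. At an unadjusted p under 0.05 1 was lower in edgeR's quasi-likelihood test, and DESeq2 called 18 higher and 0 lower. UQCRB of complex III rose by 0.55 on the log2 scale, and COX7C, COX7A2 and COX6C of complex IV by 0.38, 0.37 and 0.34. In batch 1 alone 4 of the 40 were higher and 3 lower, against 20.4% and 17.2% of all genes tested there. In batch 2 alone 27 were higher and 0 lower, against 19.4% and 19.1%. The medians were 0.04 in batch 1 and 0.25 in batch 2. The median transcript of the 40 was 716 nt, and the part of length was not tested.

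Several members share reads or exons with other genes, which limits their levels as single genes. NDUFS7 shares 49.1% of its exon bases with other annotated genes on either strand, NDUFB8 48.5%, NDUFB11 44.9% (RBM10), NDUFA1 44.5% (RNF113A), NDUFA7 33.5% and NDUFA13 21.0% (AC011448.1 and YJEFN3). NDUFC2 overlaps the read-through gene NDUFC2-KCTD14, to which 0 reads were assigned in every library. Pseudogene reads came to more than 1% of a member's own reads for NDUFV2 and for NDUFB8 (3.02%). Since no source used here gives the strand setting of the counting, reads of opposite-strand partners cannot be told apart.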

How the data were processed

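Libraries of total RNA were prepared from 250 ng with an Illumina Tru-Seq kit, per the labels' protocols. The deposited values are read counts per gene, 1 table per library, which the authors did not normalize; STAR 2.7.1a, HTSeq 0.6.1 and hg19 are named in the submitters' processing notes. For the annotation, counting mode and strand setting the sources used here state nothing. The versions of the gene identifiers fit a newer build than hg19, so no coordinates of counted genes are printed.

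The 5 rows that name no gene held 43.5% to 57.6% of the counts and were left out. A symbol table matched 60402 of 60662 identifiers. Genes passing filterByExpr (14092, holding 99.6% of reads in genes) were scaled by TMM and tested with edgeR 4.0.16 in R 4.3.3 by the quasi-likelihood test in a model of batch plus group. Benjamini-Hochberg adjustment ran over all genes tested, with calls under 0.05. A standard error is the log2 fold change divided by the root of F. Interaction and batch values came from 1 fit with batch, group and their product. The procedure was tested on simulated data. Transcript lengths and shared exons came from GENCODE 29. Alternatives were DESeq2 1.42.0, other scalings, no filter, no batch term, each batch alone, and left-out libraries; group ranges have no test.

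Every member is named but 1, whose values are not reported here; levels per group are given for the catalytic members, all fallers, the 8 risers with the smallest p, members with a called interaction and the extreme log2 fold changes. Of other lists up to 4 called genes with the smallest p are named, and NDUFAF4, NUBPL, TFAM, and GABPA, the genes that share reads with members and the promoter stretches shown were chosen after their values were seen. Members and lists were chosen with earlier results of these data known.

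Replicate numbers 1 to 8 recur in both groups. Deviations of same-numbered libraries correlated at -0.15 to 0.17, over 0.1 in 2 of 8 pairs, so the numbers were not used as pairs. Libraries of 1 batch and group differed beyond sampling noise (chi-square per degree of freedom 2.97 to 18.2).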

Additional observations from a re-analysis of the deposited data

Results flagged for a closer look

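In 3 members 1 library stood apart from the other 7 of its group by a Dixon test at the 95% level, a test that flags about 1 in 20 groups by chance, with 74 groups examined. NDUFC2 was at 3.75 CPM in control 2, far below the other controls, and without that library NDUFC2 was called lower after peroxide. NDUFA7 was at 1.96 CPM in control 4 and NDUFV3 at 39.4 CPM in peroxide 8, each the highest of its group.

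The peroxide difference was not the same in the 2 batches for NDUFB2, with an interaction of 0.55 on the log2 scale, and for NDUFS6, with 0.48. Both calls depend on single libraries, and 2 of 38 members is near the 4.88% of all genes tested with a called interaction.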

How the results depend on the processing

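Counts of called members depended on the batches and the filter, and no called value reversed. Total counts in place of TMM gave 5 members lower, 1 core member higher and 3 lower, 2 accessory members lower and 3 interactions. No filter on low counts gave 5 higher and 4 lower, core 1 and 3, accessory 4 and 1, and 6 interactions. Without a batch term 3 rose, 1 core and 2 accessory. Batch 1 alone gave 1 higher and 4 lower, core 1 higher, accessory 0 higher and 2 lower. Batch 2 alone gave 1 lower, a core member, and an accessory median of 0.21. Without control 1 and peroxide 5, which had the largest shares of reads without a unique alignment, 0 interactions were called in edgeR. Leaving out each library in turn gave 2 to 4 members lower, 1 to 3 core members higher, 2 to 3 core members lower, 0 to 1 accessory members lower and 0 to 4 interactions. The cause was not tested, except that the batches alone hold fewer samples and no filter adds genes to the adjustment. With a replicate block in place of batch 9 members were higher and 2 lower, and this changed no count by over 1.5 times; 4 of 8 numbers correlated best with their own number, a hint from the data and not the design. Depth limits NDUFA7 (180 reads in all) and NDUFV2 (909).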
